A study of Mus musculus with 4 samples.

Results

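The cells described here are c-Kit high leukemic cells from the control mice of a study of Msi2, which encodes the RNA-binding protein Musashi 2, in leukemia driven by MLL. They were chosen by their titles, Control rep1 and rep2, and make up 2 of the 4 RNA-seq libraries of the series. The other libraries come from Msi2 -/- mice and are not used here. Both control mice are of strain C57BL/6 with the genotype Msi2 flox/flox, an allele that loxP sites flank and that still makes the transcript. The design text counts 2 control mice for the 2 libraries, so each library is taken as 1 mouse, called control 1 and control 2 below. The names of both libraries begin with the same number, whose meaning is not stated. The cells were selected for a high level of the receptor c-Kit at the surface, so leukemic cells outside that gate are not described. The MLL fusion, the way the leukemia was raised, host cells left in the sort, and the age and sex of the mice are not stated in the labels. The question asked of these libraries is what the leukemic cells express when Msi2 is intact: which blood lineage they resemble in their transcripts, which transcripts fill the libraries, and which lineages are silent.

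MLL is a chromatin regulator that keeps HOX genes active, and its leukemia-forming fusions hold on the late HOXA genes and MEIS1, which immature blood cells normally switch off as they mature. In granulocyte development the primary granule proteases and myeloperoxidase are transcribed at the promyelocyte stage, secondary granule genes come on later, and genes of migration and inflammation come last. HOX, receptor, transcription factor and granule transcripts can therefore place a myeloid cell along this series.

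Levels are given as CPM, the count of a gene divided by the sum over all gene rows of its library and multiplied by 1000000. Gene counts totalled 79845492 in control 1 and 72273679 in control 2, so 1 CPM is about 79.8 and 72.3 counts, and the floor of 3 counts taken here as the limit of detection is 0.0376 and 0.0415 CPM. A gene is called expressed at 1 CPM or more in both mice, which 11085 of 23284 gene rows reached. Over the 11307 genes with a mean CPM of 1 or more, the median difference between the mice was 1.09-fold and the 90th percentile 1.42-fold. With 1 group of 2 mice there is nothing to test, and errors are the SD of n = 2. The libraries differed in sex-linked transcripts: Xist, the RNA of the inactive X, stood at 1477 and 660 CPM, and the Y-linked Eif2s3y at 16.5 and 69.7 CPM, in control 1 and control 2. Both kinds were thus present in both libraries, and whether a library holds cells of both sexes was not tested. Msi2 itself stood at 35.1 and 49.3 CPM, and its relative Msi1 at 0.40 and 0.86 CPM.

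The genes that mark this leukemia were expressed in both mice, at levels of very different size. Myeloperoxidase (Mpo) stood at 4063 CPM in control 1 and 4995 CPM in control 2, neutrophil elastase (Elane) at 4715 and 4244 CPM, and cathepsin G (Ctsg) at 2327 and 2527 CPM. Hoxa9, a homeodomain factor needed for MLL leukemia, stood at 165 and 150 CPM, and its partner Meis1 at 68.6 and 72.5 CPM. Kit, the gene of the receptor used for the sort, stood at 51.2 and 52.3 CPM. All 6 were expressed, where 47.6% of all gene rows were, and the median over all rows was 0.69 CPM. The 6 were picked as markers of these cells and Kit was the gene of the sort, so this count is a description only. The 11198 rows with a mean CPM of 1 or more and a transcript length were ranked by mean CPM per kilobase of transcript. Elane came at rank 2 with 4552, Ctsg at rank 6 with 2422 and Mpo at rank 20 with 1647. Hoxa9 came at rank 1841 with 48.8, Meis1 at rank 4124 with 21.1 and Kit at rank 6498 with 9.87. The median was 13.2 CPM per kilobase. The receptor that defined the gate thus lay below the middle of these rows on this scale, while the granule protease genes lay at its top.

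Of the 4 HOX clusters, transcripts came almost entirely from HOXA. In that cluster 10 of 11 genes were expressed, with a summed level of 417 and 380 CPM (399 ± 26.1, SD, n = 2). After Hoxa9 came Hoxa10 at 117 and 107 CPM, Hoxa7 at 40.3 and 42.1 CPM, Hoxa5 at 33.4 and 30.01 CPM, Hoxa11 at 25.1 and 17.8 CPM and Hoxa3 at 17.8 and 17.3 CPM. This order was the same as CPM, as CPM per kilobase of transcript and as CPM per kilobase of coding sequence. The most posterior member, Hoxa13, had 0 counts in both mice, which allows up to 0.0376 and 0.0415 CPM. In HOXB, 2 of 10 genes were expressed, Hoxb4 at 7.35 and 5.44 CPM and Hoxb3 at 2.45 and 1.84 CPM, and Hoxb13 stood at 2.33 CPM in control 1 against 0.12 CPM in control 2. In HOXC 9 of 9 genes were at or under the floor in both mice, as were 37.7% of all gene rows, and the 9 HOXD genes had no count at all.

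**Figure D1:**
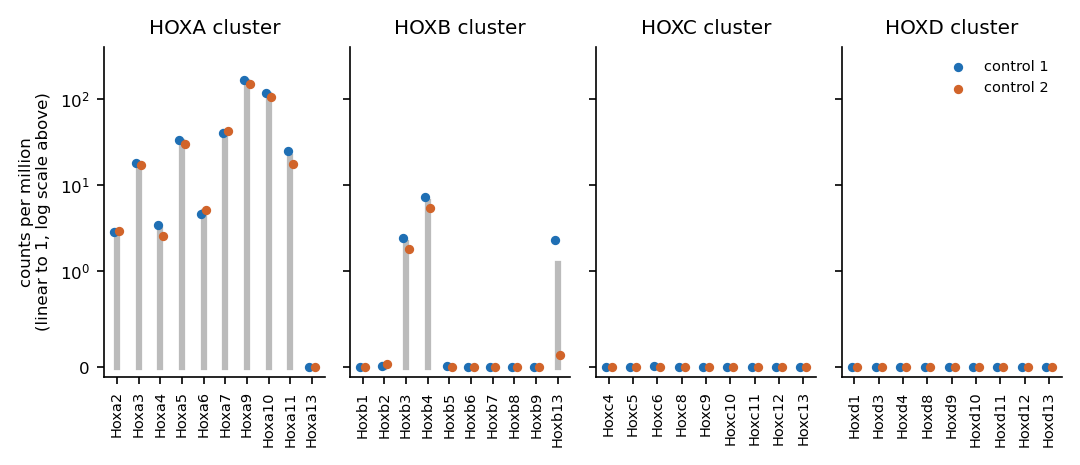
Level of HOX genes in the control libraries (CPM, linear up to 1 and logarithmic above; points are mice, grey bars the mean of n = 2), by cluster. The HOXA genes drawn, other than Hoxa13, stand above 1 CPM in both mice and peak at Hoxa9, while HOXC and HOXD lie at 0 or next to it.

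Beyond HOXA, 15 of 16 listed target genes of MLL fusions were expressed, with a median of 74.5 CPM. Myb, the factor that sustains immature blood cells, stood at 751 and 696 CPM, and Myc, the driver of growth, at 413 and 494 CPM. The transcriptional coactivator gene Eya1 stood at 82.6 and 74.4 CPM. Mef2c stood at 187 and 203 CPM, Cdk6 at 77.0 and 90.4 CPM, and Pbx3, a further partner of HOX proteins, at 29.9 and 47.6 CPM. Mecom, the gene of the stem cell factor EVI1, stood at 8.92 and 9.81 CPM, and the receptor gene Flt3 at 1.43 and 4.43 CPM. Zfp521 had 0 counts in both mice. The machinery that MLL fusions work through was expressed in full: all 15 genes of MLL complexes and elongation cofactors passed 1 CPM, with a median of 115 CPM. Mll1 stood at 239 and 249 CPM, Dot1l, the histone H3 methyltransferase, at 116 and 114 CPM, and Men1, the gene of menin, at 93.1 and 101 CPM.

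Of 14 transcription factors shared by stem cells and progenitors 11 were expressed, beside 47.6% of all gene rows. Those with the largest share of reads were Lmo2 at 416 and 331 CPM, Lyl1 at 312 and 282 CPM and Etv6 at 224 and 219 CPM. Runx1 stood at 89.2 and 74.6 CPM and Erg at 36.6 and 40.3 CPM. Tal1, which like Lyl1 encodes a partner of LMO2, was near the floor at 0.09 and 0.14 CPM. Hlf, a stem cell factor, stood at 2.37 and 0.64 CPM. Prdm16, a relative of Mecom, had 682 counts in control 1 and 1 count in control 2, or 8.54 and 0.014 CPM, so its level rests on 1 mouse. Among 12 markers of long-term stem cells 4 were expressed (Ctnnal1, Mecom, Vwf and Procr) and 4 were at or under the floor in both mice, beside 47.6% and 37.7% of all gene rows. The list's median was 0.22 CPM. Slamf1, Tek and Hoxb5 were among those at or under the floor, and Ly6a, the gene of Sca-1, stood at 0.29 and 0.48 CPM.

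All 15 receptor and surface genes of myeloid progenitors were expressed, with a median of 60.1 CPM. Cd47, the signal that restrains phagocytes, stood at 442 and 436 CPM, and Cd93 at 319 and 421 CPM. The common beta chain Csf2rb of the GM-CSF and IL-3 receptors stood at 295 and 341 CPM and the GM-CSF receptor chain Csf2ra at 196 and 183 CPM. Csf2rb and Csf2rb2 are close copies, so reads between them are uncertain. Fcgr3, part of the Fc gamma receptor pair by which granulocyte-monocyte progenitors are gated, stood at 118 and 131 CPM. Cd34, the other marker of that gate, stood at 20.6 and 43.8 CPM and was over 2-fold higher in control 2. The G-CSF receptor gene Csf3r stood at 56.9 and 63.4 CPM, and the M-CSF receptor gene Csf1r at 4.38 and 6.45 CPM. Cd48, a SLAM family gene, stood at 1.69 and 5.44 CPM. In bulk RNA, fewer cells that express a gene and less RNA of it per cell cannot be told apart, for these genes and for those that follow.

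Among the listed myeloid transcription factors, Cebpb, Cebpe, Gfi1 and Cebpa were more abundant per kilobase of transcript than Irf8 and Klf4. The mean was 130 CPM per kilobase for Cebpb, 121 for Cebpe, 102 for Gfi1 and 54.5 for Cebpa, against 8.87 for Irf8 and 0.030 for Klf4. Outside this contrast, Sfpi1 had 114 and Cebpd 12.9 CPM per kilobase, so the list does not split cleanly by branch. Of 13 myeloid transcription factors 10 were expressed, beside 47.6% of all gene rows. Gfi1, a repressor that favours granulocytes, stood at 330 and 253 CPM. Sfpi1, the gene of PU.1, stood at 247 and 215 CPM and Cebpb at 202 and 188 CPM. Cebpa, which starts granulocyte commitment, stood at 147 and 140 CPM, and Cebpe, which serves its later steps, at 160 and 140 CPM. Irf8, which favours monocytes and dendritic cells, stood at 15.5 and 34.95 CPM. Klf4, a factor of mature monocytes, stood at 0.09 and 0.10 CPM. Egr1, an immediate early gene, stood at 15.6 and 2.34 CPM, a 6.66-fold difference between the mice.

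The primary granule list had the highest median per kilobase of the 19 lists of lineages and tissues, 428 CPM. All 11 listed genes were expressed, from 96.6 to 4529 CPM as means of the mice, and together they took 16537 CPM in control 1 and 16157 CPM in control 2 (16347 ± 269, SD, n = 2). Prtn3, the gene of proteinase 3, stood at 1962 and 1476 CPM, and Ms4a3, a membrane protein gene of granulocyte-monocyte progenitors, at 968 and 791 CPM. Serpinb1a, an inhibitor of the granule proteases, stood at 883 and 645 CPM, and Srgn, the core protein on which granule contents are packed, at 822 and 656 CPM. As means of the mice, Mpo came first in plain CPM, but per kilobase the order was Elane, Ctsg, Prtn3 and Mpo. That order of means held for the transcript and for the coding sequence. In control 2 alone Mpo stood above Prtn3 per kilobase of transcript, at 1816 against 1440. In control 1 alone Elane led in plain CPM, at 4715 against 4063 for Mpo. Ctsc, the gene of the enzyme that activates these proteases, stood at 99.6 and 132 CPM. Per kilobase of transcript its mean of 35.9 CPM was the lowest of the list.

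To show what stands before the 4 genes that lead this list, the 250 bases upstream of each annotated start are printed from RefSeq in the build GRCm38.p6, 5′ to 3′ on the strand of the gene. They lie at chr10:79886062-79886311 (Elane, plus strand), chr14:56102575-56102824 (Ctsg, minus strand), chr10:79879417-79879666 (Prtn3, plus strand) and chr11:87793534-87793783 (Mpo, plus strand). Capitals mark matches, on either strand, to GAGGAA (a PU.1 core), AACNGNC (MYB), TGTGGT (RUNX) and TTGCNNAA (C/EBP).
Elane: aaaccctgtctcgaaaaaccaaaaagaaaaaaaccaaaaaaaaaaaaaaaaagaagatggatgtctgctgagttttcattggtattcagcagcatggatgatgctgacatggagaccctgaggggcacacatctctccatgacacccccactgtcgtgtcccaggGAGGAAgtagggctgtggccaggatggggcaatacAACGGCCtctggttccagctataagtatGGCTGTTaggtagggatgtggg
Ctsg: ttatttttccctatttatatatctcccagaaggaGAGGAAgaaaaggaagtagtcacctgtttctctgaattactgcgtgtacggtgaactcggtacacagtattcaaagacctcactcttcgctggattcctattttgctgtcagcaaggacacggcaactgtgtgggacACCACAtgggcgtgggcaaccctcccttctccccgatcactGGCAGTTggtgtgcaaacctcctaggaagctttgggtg
Prtn3: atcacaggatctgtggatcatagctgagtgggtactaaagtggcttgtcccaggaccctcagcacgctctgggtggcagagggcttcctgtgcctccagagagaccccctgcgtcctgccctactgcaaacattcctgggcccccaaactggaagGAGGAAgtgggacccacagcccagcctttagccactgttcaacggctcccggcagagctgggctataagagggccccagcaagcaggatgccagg
Mpo: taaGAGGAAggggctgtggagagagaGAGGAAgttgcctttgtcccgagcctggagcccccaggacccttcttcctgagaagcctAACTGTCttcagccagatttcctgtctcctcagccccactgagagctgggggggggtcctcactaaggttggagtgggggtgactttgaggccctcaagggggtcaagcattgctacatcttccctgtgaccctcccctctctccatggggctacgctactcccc
GAGGAA occurred in 4 of 4 of these windows, as in 23.3% of all 32851 RefSeq promoter windows of the same length, and Mpo held 2 matches. AACNGNC occurred in 3 of 4, with 2 matches in Elane, as in 27.7% of all windows. TGTGGT occurred only in Ctsg among the 4, as in 14% of all, and TTGCNNAA in 0 of 4, as in 9.56% of all. No match overlapped another. These are counts of letters in 4 windows of genes picked for their level, and no binding was measured.

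Lists of later granulocyte stages had lower medians, 14.7 CPM per kilobase for secondary and tertiary granules and 9.96 for mature neutrophils. Single members lay far above these medians. S100a8 had 504 CPM per kilobase, above the primary granule median of 428, S100a9 had 333 and Ngp 283. In the secondary and tertiary granule list 10 of 12 genes were expressed, with a summed 893 and 634 CPM. Ngp, neutrophilic granule protein, stood at 444 and 248 CPM, Pglyrp1, a peptidoglycan-binding protein gene, at 107 and 100 CPM, and Lyz2, lysozyme, at 80.1 and 122 CPM. Ltf, the gene of lactoferrin and a defining secondary granule transcript, stood at 4.52 and 3.90 CPM, and Mmp9, gelatinase of the tertiary granules, at 0.81 and 0.86 CPM. Mature neutrophil genes were uneven, with 6 of 10 expressed. Of all gene rows 47.6% were expressed. The calcium-binding protein genes S100a8 and S100a9 stood at 278 and 212 CPM and at 198 and 147 CPM, and Itgam, which encodes CD11b, at 195 and 144 CPM. The chemokine receptor gene Cxcr2 stood at 6.69 and 9.48 CPM, while Fpr1, a receptor of bacterial peptides, and Retnlg were under 0.2 CPM in both mice.

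Of the monocyte list 10 of 12 genes were expressed, beside 47.6% of all gene rows. The list's sum of 1608 and 1542 CPM was mostly 1 gene. Ly6c2, which encodes the Ly6C surface protein of monocytes and of their progenitors, stood at 1287 and 1138 CPM. Ccr2, the receptor by which monocytes leave the marrow, stood at 132 and 200 CPM, and Lgals3 at 76.5 and 87.8 CPM. Cx3cr1, a marker of patrolling monocytes, stood at 2.03 and 0.73 CPM.

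Of 19 lists of lineages and tissues, 10 were silent, meaning that under 25% of the measured members were expressed and the median was under 1 CPM. These were the macrophage, eosinophil, erythroid, B cell, T cell, NK cell, stroma and bone, liver, skeletal muscle and nervous system lists. In the erythroid list 0 of 15 genes were expressed, and the sum was 1.73 CPM in each mouse. At or under the floor in both mice were 10 of 15, beside 37.7% of all gene rows. Klf1, the erythroid master factor, stood at 0.89 and 0.83 CPM, and Slc4a1, Hba-a1 and Hba-a2 had 0 counts. The globin genes have near-identical copies, so their counts are uncertain if reads with several matches were dropped. The liver list (0 of 7 expressed) summed to 0.14 and 0.11 CPM.

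**Figure D2:**
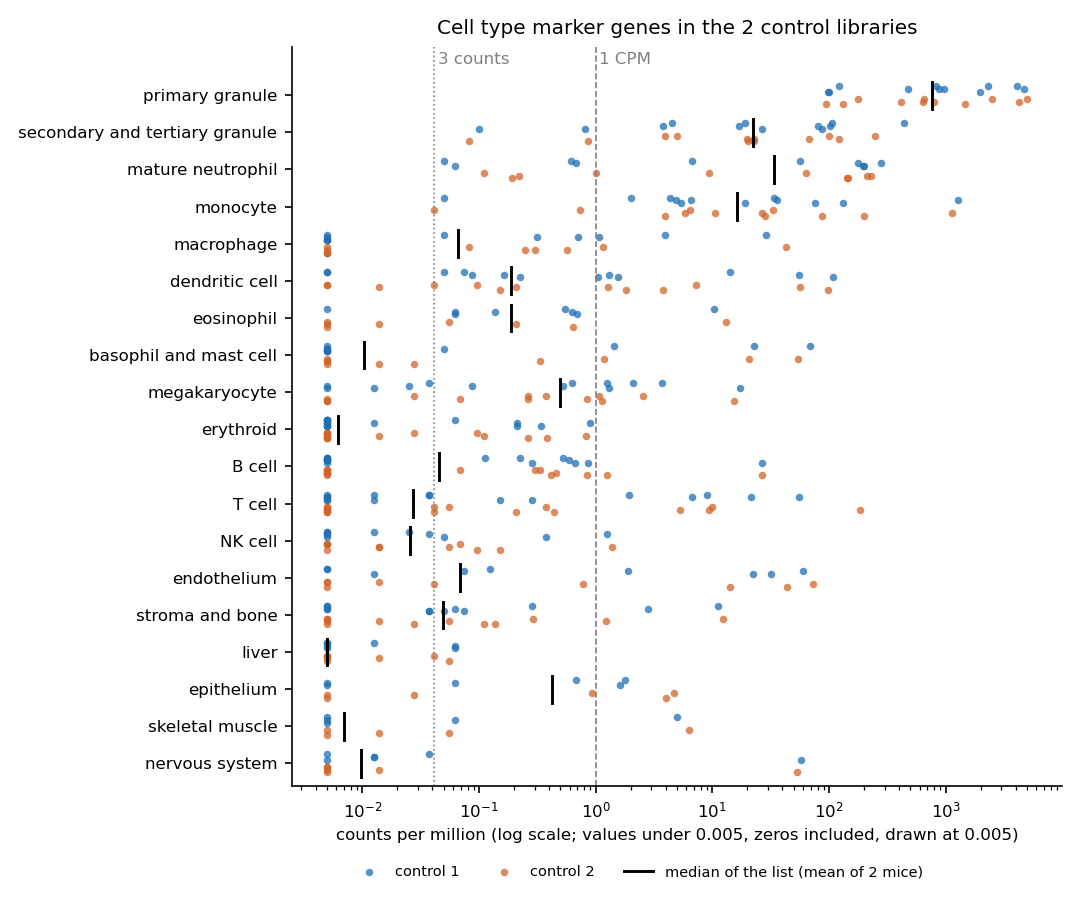
Level of each marker gene in control 1 and control 2 (CPM, log scale; each point is 1 gene in 1 mouse, black bars are list medians, zeros are drawn at the left edge). Granule, neutrophil and monocyte lists stand to the right of 1 CPM, and the erythroid, lymphoid and tissue lists mostly lie near or under the floor, with a few members far above the rest of their list.

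In several silent lists, a few members stood far above the others. In the B cell list 1 of 16 genes was expressed: Cd79b, a signalling chain of the B cell receptor, stood at 26.5 CPM in each mouse, while its partner Cd79a stood at 0.59 and 0.46 CPM and Pax5, Ebf1 and Ms4a1 had 0 counts. In the T cell list 4 of 17 were expressed. Thy1 stood at 55.2 and 186 CPM, Cd28 at 21.4 and 9.48 CPM, Lck at 9.09 and 10.03 CPM and Tcf7 at 6.68 and 5.29 CPM. The defining genes of the T cell receptor complex were not detectable at this depth or near the floor, with 0 counts for Cd3e, Cd3g and Cd8a and with Cd3d at 0.04 and 0.06 CPM.

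The macrophage list held Emr1, which encodes F4/80, at 29.2 and 43.3 CPM, beside 0 counts for C1qa, C1qb, C1qc, Marco and Timd4. The eosinophil list held Siglec5 at 10.4 and 13.03 CPM, beside Epx, eosinophil peroxidase, at 0.55 and 0.06 CPM. The stroma and bone list held Pdgfrb at 11.3 and 12.4 CPM, beside 0 counts for Cxcl12, Dcn and Lum. The nervous system list held Mbp at 57.5 and 53.0 CPM, the other 5 genes being at or under the floor. Mbp encodes myelin basic protein, and its locus also gives the Golli transcripts of blood cells. The NK cell list held Klrb1c at 1.26 and 1.38 CPM, with 0 counts for Ncr1 and Il2rb. The skeletal muscle list held Ckm, muscle creatine kinase, at 4.96 and 6.38 CPM, the other 4 genes being under 0.1 CPM.

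Outside the myeloid lists, 5 lists were neither silent nor fully expressed. For comparison, 47.6% of all gene rows were expressed. Of the basophil and mast cell genes 3 of 10 were expressed: Hdc, histidine decarboxylase, at 69.6 and 54.5 CPM, the basophil protease Mcpt8 at 22.8 and 20.5 CPM, and Ms4a2 at 1.43 and 1.18 CPM, with 0 counts for the mast cell tryptases Tpsb2 and Tpsab1. Of the dendritic cell genes 6 of 13 were expressed, close to the share of all gene rows. Among them were Tcf4 at 109 and 99.3 CPM and Bst2 at 55.0 and 56.1 CPM, while Siglech and Cd209a had 0 counts. The megakaryocyte list had 4 of 13, among them Itgb3 at 17.5 and 15.3 CPM, with Pf4, platelet factor, at 0.63 and 0.37 CPM. The endothelium list had 3 of 9: Pecam1, also a leukocyte adhesion gene, at 59.7 and 73.4 CPM, Egfl7 at 31.8 and 43.5 CPM and Flt1 at 22.2 and 14.3 CPM, while the vascular cadherin gene Cdh5 stood at 0.13 and 0.01 CPM. The epithelium list had 2 of 6, Cdh1 and Krt18, each under 5 CPM.

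Among the most abundant rows, genes of translation were the largest class. The 10 most abundant rows took 3.85% and 4.06% of gene counts, the 100 most abundant 15.6% and 15.4%, and the 1000 most abundant 47.8% and 48.3%. The highest row was Eef1a1, the elongation factor that brings tRNA to the ribosome, at 8165 and 8986 CPM. By the mean of the mice Mpo and Elane came next. Eef2 followed at 4116 and 4575 CPM, and the chaperone gene Hsp90ab1 at 3837 and 4306 CPM. The rest of the 20 highest rows were Rpl4, Actb, Pkm2, Ctsg, Rpsa, Rplp0, Rps2, Rpl13a, Rpl8, Gnb2l1, Pabpc1, Rn45s, Ncl, Tubb5 and Calr. Rn45s, the ribosomal RNA precursor, stood at 1876 and 2159 CPM. The 100 highest were sorted into classes by gene symbol and by the gene lists. The largest classes were 31 cytosolic ribosomal proteins, 11 translation factors, 7 chaperones, 7 RNA-binding and splicing proteins and 7 cytoskeletal proteins. A further 5 were members of the primary granule list and 5 of the glycolysis list, while 23 fell in no class. The classes are not exhaustive, as the hexokinase gene Hk3 was among those 23. The 77 ribosomal protein genes together took 65201 and 65229 CPM. Some lay far below the list median of 752 CPM, with Rps27 at 3.22 and 3.42 CPM and Rpl26 at 6.12 and 5.78 CPM. Rpl30 stood at 13.6 and 14.6 CPM and Rpl34 at 14.5 and 11.6 CPM. These values and the sum are uncertain if reads with several matches were dropped. Longer transcripts yield more reads, so this order is one of reads, not of molecules.

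**Figure D3:**
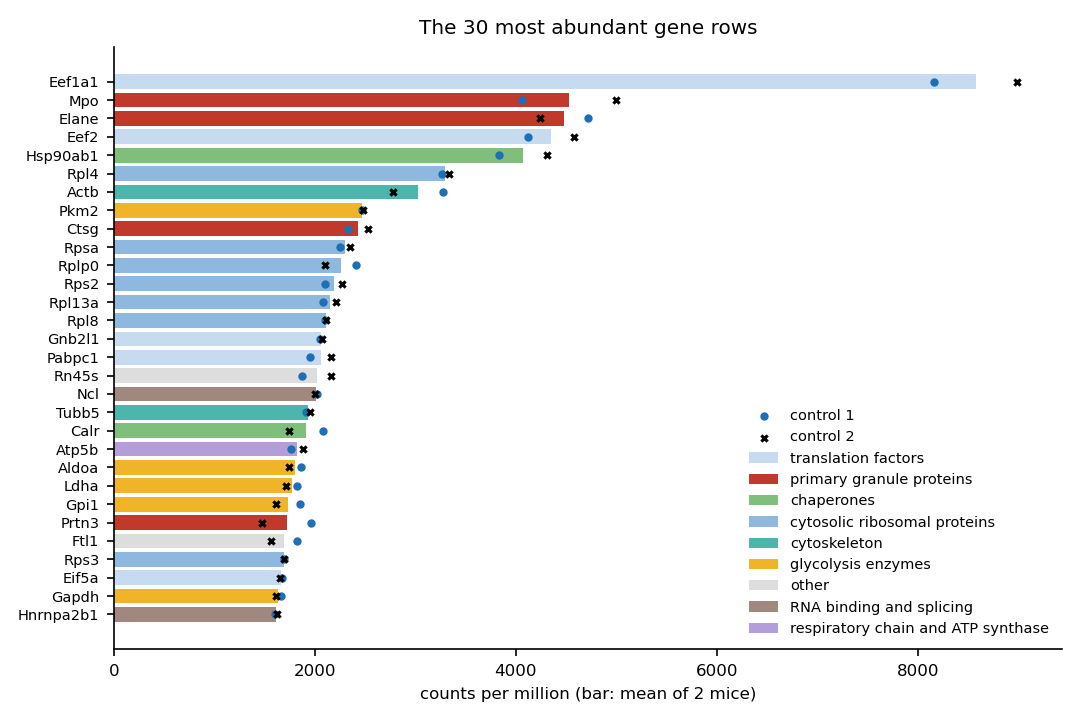
The 30 most abundant gene rows by share of reads (bars: mean CPM of n = 2 mice; points and crosses: control 1 and control 2; colours: class of the gene product). Eef1a1 leads at 8575 CPM, and the granule genes Mpo, Elane, Ctsg and Prtn3 stand among genes of translation, chaperones and glycolysis.

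The libraries also carried the transcripts of dividing cells. All 15 S phase genes were expressed, summing to 4306 and 4873 CPM. The replicative helicase genes had the largest shares of reads, with Mcm6 at 559 and 678 CPM, Mcm5 at 513 and 605 CPM and Mcm3 at 467 and 542 CPM. All 15 genes of G2 and mitosis were expressed, summing to 3636 and 3266 CPM. Mki67, the proliferation antigen, stood at 838 and 863 CPM and Top2a at 623 and 580 CPM. Cdk4 stood at 371 and 390 CPM, and of the D cyclins Ccnd3 at 356 and 333 CPM, Ccnd2 at 135 and 169 CPM and Ccnd1 at 3.54 and 3.06 CPM. Among the inhibitors Cdkn1a, the gene of p21, stood at 248 and 150 CPM, Cdkn2c at 57.3 and 91.1 CPM, Cdkn2a at 17.8 and 10.03 CPM and Cdkn2b at 0.53 and 0.25 CPM. All 14 genes of glycolysis were expressed, with a sum of 11867 and 11226 CPM. Pyruvate kinase (Pkm2) stood at 2470 and 2475 CPM, Aldoa at 1864 and 1739 CPM and Ldha at 1824 and 1714 CPM. Eno1 stood at 29.6 and 24.5 CPM, a value that is uncertain because reads may be shared with copies of the gene.

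The mice differed over 2-fold in few genes. Of the 11307 genes with a mean CPM of 1 or more, 187 (1.65%) were over 2-fold higher in control 2 and 188 (1.66%) over 2-fold higher in control 1. By any amount, 46.9% were higher in control 2 and 53.1% in control 1. Among genes with a mean of 8 CPM or more and an established symbol, the largest ratios toward control 2 were those of Dpp4, a surface peptidase gene, at 0.39 and 23.5 CPM (60.4-fold), Hnf4a, a nuclear receptor gene known from liver and gut, at 0.94 and 29.5 CPM (31.4-fold) and Ly6k at 3.64 and 38.2 CPM (10.5-fold). Zfp111, P2rx3, Ablim1, Mmp8, Uty, Kdm5d and Aldh1l2 followed. P2rx3, an ATP-gated channel gene, stood at 24.9 and 161 CPM. Toward control 1 the largest were those of Stag3, a meiotic cohesin gene, at 20.8 and 1.98 CPM (10.5-fold), Vill at 41.8 and 6.12 CPM (6.84-fold) and Egr1. Fcnb, Mzf1, Slfn4, Camp, Sash1, Zfp783 and Chi3l3 followed. Camp, the cathelicidin gene, stood at 87.6 and 20.3 CPM, Fcnb, ficolin B, at 33.1 and 5.41 CPM, and Chi3l3 at 19.0 and 4.98 CPM. Mmp8, the neutrophil collagenase gene, went the other way, at 3.78 and 19.8 CPM. Of the 10 secondary and tertiary granule genes with a mean CPM of 1 or more, 7 were higher in control 1, where 53.1% of all genes were, and 3 in control 2, among them Lyz2.

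No HOXA gene and no primary granule gene differed over 2-fold, and 7 of 10 expressed HOXA genes and 7 of 11 primary granule genes were higher in control 1, where 53.1% of all genes were. Of the 15 progenitor receptor and surface genes, 13 were higher in control 2, where 46.9% of all genes were, and 3 of them (Cd34, Flt3 and Cd48) over 2-fold, as 1.65% of all genes were. Of 13 stem cell transcription factors with a mean CPM of 1 or more, Prdm16 and Hlf were over 2-fold higher in control 1, as 1.66% of all genes were. Hoxb13 of the HOXB cluster was also over 2-fold higher in control 1. These ratios rest on low levels. Hlf stood at 2.37 and 0.64 CPM and Hoxb13 at 2.33 and 0.12 CPM, while Prdm16 had 682 counts in control 1 and 1 count in control 2. S phase genes were higher in control 2 in 12 of 15 cases, with a median log2 ratio of 0.19, against 46.9% of all genes and a median of -0.01. Genes of G2 and mitosis were higher in control 1 in 14 of 15 cases, with a median log2 ratio of -0.21. None of these 30 genes reached 2-fold.

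Genes of the amino acid response differed more. A list of 33 genes known as targets of ATF4, the transcription factor that cells use under amino acid shortage, was written after differences between the mice had been seen, so its counts are a description only. It was taken from general knowledge of the pathway, no gene was removed for its value, and it holds genes already seen among the largest ratios, such as Aldh1l2, Bcat1 and Trib3. All 31 members with a mean CPM of 1 or more were higher in control 2, where 46.9% of all genes were, and 13 were over 2-fold higher, as 1.65% of all genes were. Their median log2 ratio was 0.79. The list summed to 3924 CPM in control 1 and 6298 CPM in control 2. Asparagine synthetase (Asns) stood at 225 and 453 CPM, Pck2, mitochondrial PEP carboxykinase, at 142 and 317 CPM, and Gpt2, an alanine transaminase gene, at 72.7 and 208 CPM. The pseudokinase gene Trib3 stood at 20.8 and 72.2 CPM, Chac1, which degrades glutathione, at 19.0 and 53.5 CPM, and the cystine transporter gene Slc7a11 at 24.2 and 61.2 CPM. Psat1 of serine synthesis stood at 551 and 809 CPM. A list of 20 cytosolic tRNA synthetases, written at the same time, was higher in control 2 for 18 of 20 genes, beside the same 46.9% of all genes, with 0 over 2-fold and a median log2 ratio of 0.29. Control 2 also had the lower Xist, the higher Y-linked transcripts and a share of counts outside genes of 20.1% against 19.1% in control 1. The part of these in the differences was not tested.

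**Figure D4:**
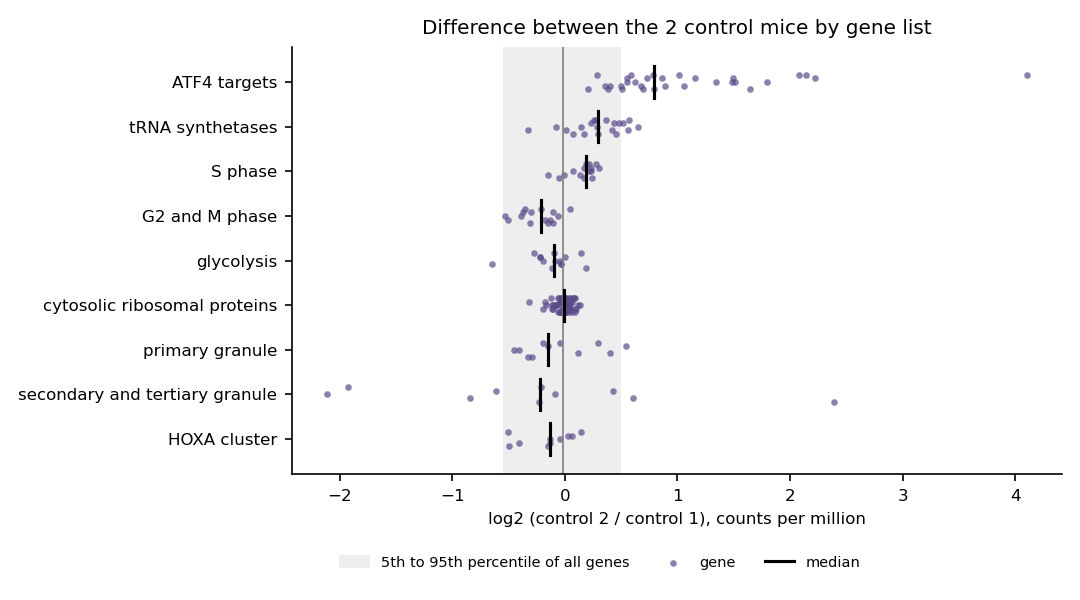
Log2 ratio of control 2 over control 1 for the members of 9 gene lists with a mean of 1 CPM or more (points: genes; black bars: list medians; grey band: the 5th to 95th percentile of all such genes, -0.54 to 0.49). ATF4 targets lie to the right, with a median of 0.79, while ribosomal protein genes gather at 0 and secondary granule genes spread to both sides.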

How the data were processed

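RNA was sequenced from sorted c-Kit high leukemic cells on a HiSeq 2000 with paired ends after TruSeq RNA preparation, per the labels. Each library was taken as 1 mouse from the number of mice in the design text. The submitters' processing notes name Trimmomatic, STAR, HTSeq, DESeq and the build mm9, without versions or roles. The gene annotation and the strand setting used for counting are not stated there, and reads of overlapping or antisense genes cannot be told apart. The authors deposited raw, unnormalized counts for each gene symbol: 23284 genes, followed by 5 rows of unassigned reads. Those 5 rows held 19.1% and 20.1% of the counts in control 1 and control 2 and were left out.

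Counts were divided by the sum of the gene rows of their library to give CPM, with Python 3.11.15 and pandas 2.3.3. At this depth, 3 counts, the floor, equal 0.0376 and 0.0415 CPM; floors cover counting error only. The mice differed far beyond counting noise (chi-square of 51.7 per gene), so each counts as 1 sample. Shares of reads are ranked as CPM and do not order genes by molecules; levels of genes were compared per kilobase of the longest GENCODE M21 transcript with a RefSeq pairing (98% of gene rows), or of coding sequence. Of 391 list symbols 388 matched. Members, lists and the rule for named genes (the marker genes and Msi2, the 20 highest rows, the 3 highest members of each list with defining members at the floor, and the 10 largest ratios per direction between the mice at a mean of 8 CPM or more) were chosen with earlier results of these data known. Further list members are given as values, and the ATF4 and tRNA synthetase lists were added after the control values had been seen. The code of the 2-fold count was run on simulated counts that held counting noise only. That run does not cover the spread between mice, and the other steps were not simulated. The alternatives were TMM scaling (edgeR 4.0.16 in R 4.3.3), median-of-ratios scaling, other library totals, floors and lines, thinning, and each mouse alone. No p-value was computed. The Msi2 -/- libraries were not analysed here. Values of some list members are not reported here, although list counts and sums include them.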

Additional observations from a re-analysis of the deposited data

How the results depend on the processing

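No paired analysis was possible because only 1 group is described. Scaling by TMM or by median of ratios left the list sums, the 10 silent lists and the share of the 100 highest rows at their reported values. With the rows of unassigned reads in the library size, that share was 12.5%, the primary granule sum 13146 CPM, the HOXA sum 321 CPM, the erythroid sum 1.39 CPM, and basophil and megakaryocyte lists became silent (12 lists). Without the 10 highest genes in the library size they were 16.2%, 17019 CPM and, for the erythroid list, 1.80 CPM; with control 1 thinned to the depth of control 2 the erythroid sum was 1.67 CPM. The silent lists numbered 8 at a line of 0.5 CPM (macrophage and eosinophil lost), 14 at 2 CPM and, added after seeing the data, 13 at 1 CPM per kilobase. With 1 mouse alone they numbered 8 to 10: in control 1 the macrophage and T cell lists were not silent. The counts over 2-fold (control 2, then control 1) were 710 and 952 with no filter beyond the floor, and 64 and 48 at a mean of 8 CPM or more. They were 428 and 490 at 1.5-fold, and 38 and 47 at 4-fold. They were 178 and 183 without genes of X and Y (added later), and cannot be had from 1 mouse. For P2rx3 and Egr1 the SD exceeds the mean, so their levels depend on the mouse.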

Other observations

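Some abundant transcripts belonged to none of the gene lists and were picked after their values were seen. Hpgd, which breaks down prostaglandins, stood at 1673 CPM in control 1 and 1337 CPM in control 2, and Plac8, a gene of immature myeloid cells, at 945 and 963 CPM. Hk3, the myeloid hexokinase gene, stood at 976 and 852 CPM, and per kilobase of transcript its mean of 284 CPM was above those of Hk1 (66.3) and Hk2 (26.6). Rab44, a large Rab GTPase gene, stood at 829 and 893 CPM and Hp, haptoglobin, at 889 and 791 CPM. Slpi, an inhibitor of elastase and cathepsin G, stood at 1257 and 544 CPM, a 2.31-fold difference between the mice.

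A few noncoding transcripts, also picked after their values were seen, are given as values. Malat1 stood at 491 and 471 CPM, Gas5 at 276 and 255 CPM, Neat1 at 275 and 219 CPM and Mir17hg, the host of the miR-17 to miR-92 cluster, at 94.0 and 105 CPM. The imprinted transcript H19 had 1 and 2 counts.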
